A study of Homo sapiens with 8 samples.

Results

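The regions described are unspliced RNA fragments that lay wholly inside introns of known genes in K562, an established leukaemia cell line of erythroid character that carries a BCR-ABL1 fusion. The members were selected on their structure and length as the assembler reported them, which are readouts of these libraries. A fragment was taken from a library's list of transcripts where the assembler had built it from the reads rather than from the annotation. It had 1 exon, was 300 nt or longer, lay on chromosomes 1 to 22 or X, was contained in an intron of a reference transcript and touched no reference exon on either strand. Across the 8 libraries 6699 fragments met these terms, and fragments that overlapped were merged over libraries into 5211 regions. All merged unspliced regions of that length, inside introns, outside known genes or touching exons, numbered 10381. Coordinates are those of the deposited lists on hg19.

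In both lines a transgene of SF3B1 could be switched on with doxycycline, in wild-type form (SF3B1-WT) or with the K700E substitution (SF3B1-K700E). K700E_induced and WT_induced cells had received doxycycline at 1 ug/ml for 48 h, and K700E_uninduced and WT_uninduced cells had received none; each group held 2 libraries of RNA depleted of ribosomal RNA. Whether each line was a single clone, and whether replicates were separate cultures, is not given in the sources used here, so the p-values measure only the spread between these libraries, which may be technical. SF3B1 itself, the gene of the transgene, stood at 29.0 and 39.5 FPKM (sequenced fragments per kilobase of transcript, scaled to the mapped total) in K700E_induced and 34.6 and 30.4 in K700E_uninduced. In WT_induced it was at 36.6 and 27.3, and in WT_uninduced at 37.7 and 31.7. The induced and uninduced values overlapped in both lines, so a rise of SF3B1 with doxycycline is not visible in these values, in which transgene and endogenous gene cannot be told apart.

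An intron is removed from the primary transcript by the spliceosome, and its lariat is normally debranched and degraded in the nucleus. Intronic RNA that lasts long enough to be sequenced can be part of an unspliced or partly spliced precursor, a stable intron, an unannotated exon or a separate transcript with its own start. SF3B1 is part of the U2 small nuclear ribonucleoprotein, which recognises the branch point near the 3′ end of an intron, and the K700E form is known for the use of cryptic 3′ splice sites.

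Of the 12 genes chosen to mark K562 cells, all had a median of 1 FPKM or more, among them the fetal and embryonic globin genes HBG1, HBG2, HBE1 and HBZ. Of 20 markers of other cell types, 5 had a median of 1 FPKM or more (CD3D, LYZ, COL1A1, EPCAM and TUBB3) and 9 were listed at 0 in every library. The libraries held between 24913 and 45557 assembled transcripts. Coverage per FPKM of long reference transcripts, the sign of depth that the lists hold, ranged from 3.29 to 4.77.

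The number of intronic fragments differed more within groups than between them. There were 518 and 938 in K700E_induced replicates 1 and 2, a mean of 728 ± 297 (SD, n = 2). K700E_uninduced replicates held 1151 and 696, a mean of 924 ± 322 (SD, n = 2). In WT_induced the numbers were 1202 and 827, a mean of 1014 ± 265 (SD, n = 2). WT_uninduced held 927 and 440, a mean of 684 ± 344 (SD, n = 2). Every group therefore had a high and a low library, and the ranges of all 4 groups overlapped.

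**Figure D1:**
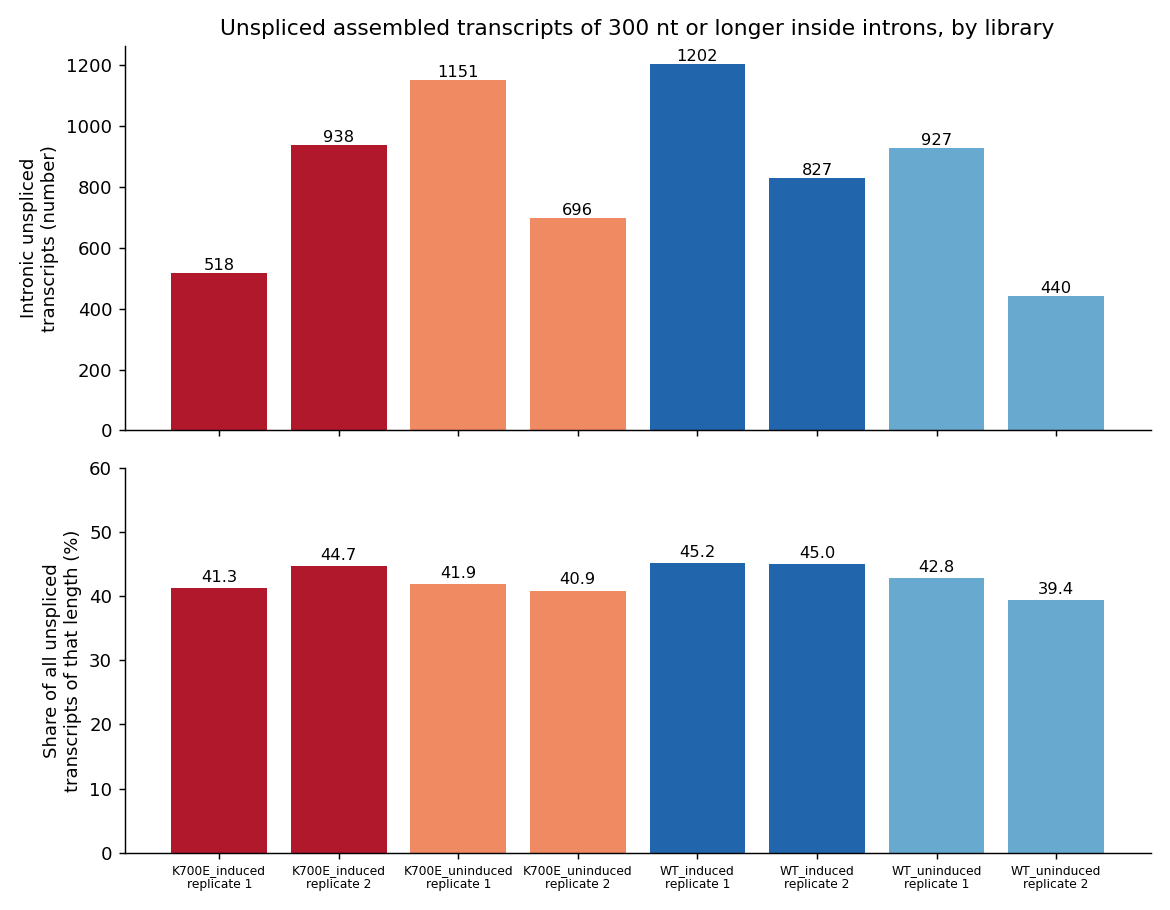
The upper panel plots the number of unspliced assembled transcripts of 300 nt or longer inside introns in each library, and the lower panel plots them as a percentage of all unspliced assembled transcripts of that length; colours mark the 4 groups. The numbers run from 440 to 1202 with a wide gap between replicates, while the percentages stay between 39.4% and 45.2%.

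The 4 libraries with doxycycline had a mean of 871 intronic fragments against 804 in the 4 without, a difference of 67.8 that was within the spread (exact permutation test, two-sided, p = 0.743, adjusted over 3 tests 0.914, smallest possible p 0.0286). The K700E line had 826 and the WT line 849, a difference of -23.2 (exact permutation test, two-sided, p = 0.914, adjusted 0.914, smallest possible p 0.0286). K700E_induced had 146 fewer than the mean of 874 in the other 6 libraries (exact permutation test, two-sided, difference -146, p = 0.607, adjusted 0.914, smallest possible p 0.0357). The sign of each difference turned when some single library was left out: without WT_uninduced replicate 2 the doxycycline difference was -53.4, without WT_induced replicate 1 it was -42.5 and the line difference was 94.4, and without K700E_induced replicate 1 the last difference was 64.2. The line difference was also above 0 without K700E_induced replicate 1 (79.3), K700E_uninduced replicate 2 (20.0) or WT_uninduced replicate 1 (2.75).

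The names of the deposited lists place all replicates 1 on one sequencing lane and all replicates 2 on another, and within the lanes the differences had opposite signs. Doxycycline libraries had 179 fewer fragments on the first lane (860 against 1039, difference -179) and 314 more on the other (882 against 568). For the K700E line the differences were -230 and 184, and for K700E_induced against the other 3 libraries of its lane -575 and 284. None of the 3 pooled relations therefore held within both lanes.

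The number of intronic fragments moved with the size of the library's list of assembled transcripts. That list contains them and was mostly unspliced, with 22570 of 24913 in WT_uninduced replicate 2 and 42193 of 45557 in WT_induced replicate 1. Coverage per FPKM was highest in WT_induced replicate 1 (4.77) but did not follow throughout. It was 4.45 in K700E_induced replicate 1, with 518 fragments, and 3.85 in K700E_uninduced replicate 1, with 1151. WT_uninduced replicate 2 had the fewest assembled transcripts (24913) and the fewest intronic fragments (440), and WT_induced replicate 1 had the most of both (45557 and 1202). Per 1000 assembled transcripts the libraries held between 17.7 and 28.9 intronic fragments. As a share of all unspliced transcripts of 300 nt or longer, intronic ones made up 41.3% and 44.7% in K700E_induced, 41.9% and 40.9% in K700E_uninduced, 45.2% and 45.0% in WT_induced, and 42.8% and 39.4% in WT_uninduced. The libraries with doxycycline were 2.79 percentage points higher on average, with overlapping values (exact permutation test, two-sided, adjusted p = 0.257; over all alternatives of this comparison 0.257 to 1.00). The part of library size in the counts was not tested.

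The fragments were short and sat at moderate levels. Their lengths ran from 300 to 2762 nt with a median of 374 nt; 4073 of them (60.8%) were less than 100 nt above the minimum and 68 reached 1000 nt. The deposited FPKM ranged from 1.14 to 922 with a median of 43.2, and 190 fragments (2.84%) were under 10 FPKM. The length limit cut through a continuum, since a further 89532 intronic unspliced fragments measured 200 to 299 nt. At the limit, 55 fragments of 299 nt stayed out and 57 of 300 nt came in. Examples of those tied at 299 nt were in STAG2, a cohesin gene, with 35.9 FPKM in WT_uninduced replicate 1, and in FLNA. FLNA encodes an actin cross-linking protein, and its fragment had 187 FPKM in K700E_induced replicate 1. Examples of those tied at 300 nt were in NADK, the gene of NAD kinase, with 175 FPKM in WT_uninduced replicate 1, and in KAZN. The KAZN fragment had 58.5 FPKM in K700E_uninduced replicate 1.

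Most regions ran along the strand of their host gene. Of the 5211 regions, 4428 (85.0%) were sense, 494 (9.48%) antisense, 71 met hosts on both strands or held fragments of both strands, and 218 had no strand assigned. First introns held 23.9% of the regions and 29.2% of intron sequence. With each intron cut into 3 equal parts, the midpoint of the region fell in the 5′ part for 39.3%, in the middle part for 37.7% and in the 3′ part for 23.0%. The nearest reference exon was within 1000 nt for 2715 regions (52.1%) and within 100 nt for 626, and 252 (4.84%) covered at least 50% of their intron. Of the sense regions, 12.9% ended within 200 nt of the 5′ splice site and 9.12% within 200 nt of the 3′ splice site, the side at which the branch point lies. By library the 3′ share was 9.86% and 11.1% in K700E_induced and between 9.25% and 14.6% in the other 6, so the K700E_induced values lay inside the range of the rest.

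Regions were rarely shared between libraries. A single library held 4514 of the 5211 (86.6%), 2 libraries held 424, 3 held 124, 4 held 62, 5 held 39, 6 held 19, 7 held 14 and all 8 held 15. The 149 regions in 4 or more libraries (2.86%) lay in 126 host genes. Merged regions outside known genes, 3741 in number, were shared more widely, with 71.8% in 1 library and 8.79% in 4 or more; both sets come from the same libraries and the difference has no test over samples. The median length was 363 nt for regions of 1 library, 878 nt for 4 and 1644 nt for all 8, but a region is the union of its fragments, so its length grows with the number of libraries by construction.

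**Figure D2:**
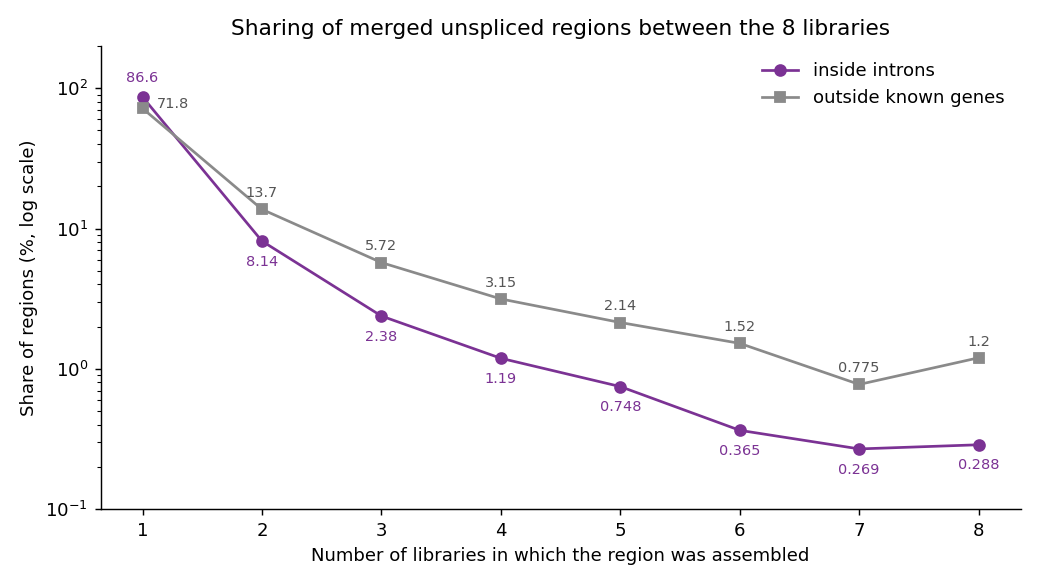
The share of merged unspliced regions (vertical axis, per cent, log scale) is plotted against the number of libraries in which a region was assembled, for regions inside introns and outside known genes. Both curves fall from 86.6% and 71.8% in 1 library, and the intronic curve lies below the other from 2 libraries on.

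Assembly of a fragment of 300 nt is an all-or-none step, and shorter fragments were often present where a region was not counted. Of the 4514 regions of 1 library, 2583 (57.2%) overlapped an unspliced fragment of any length in at least 1 other library. The same held for 475 of 548 regions of 2 or 3 libraries (86.7%) and for 123 of 134 regions of 4 to 7 libraries (91.8%). A value of 0 for a region below therefore means that no fragment meeting the terms above was assembled there, not that no RNA was present. Unspliced fragments that touched a reference exon, and RNA assembled into spliced transcripts, were not counted. Of the 149 regions in 4 or more libraries, 28.9% had an exon of an assembled spliced transcript on the same strand over them, and 24.2% lay within 100 nt of a reference exon.

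Libraries of the same group and libraries of different groups shared regions to a like degree. For the 4 same-group pairs, the regions held by both libraries made up 5.37% to 6.11% of those held by either (median 5.88%), and for the 24 different-group pairs 4.57% to 6.78% (median 5.88%). Both libraries of K700E_induced held 81 of the 1326 regions found in either, those of K700E_uninduced 103 of 1688, those of WT_induced 106 of 1870 and those of WT_uninduced 68 of 1267. Regions in both libraries of a group and in none of the other 6 numbered 14 for K700E_induced (0.289% of all merged unspliced regions had that pattern), 16 for K700E_uninduced (0.520%), 25 for WT_induced (0.433%) and 10 for WT_uninduced (0.193%). Pairs of libraries from different groups held between 5 and 36 regions found in no further library, a range that contains all 4 of these numbers.

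The 14 regions of K700E_induced alone were led by sites in LOC100130691, ANKH and PTDSS2. The region in LOC100130691 (chromosome 2, 178185811 to 178186172, sense, intron 6 of 8) had 123 and 53.2 FPKM in the replicates. ANKH, which encodes a membrane protein of pyrophosphate and ATP export, held an antisense region (chromosome 5, 14711430 to 14711890, intron 11 of 11) with 138 and 31.7 FPKM, ending 10 nt from an exon. PTDSS2, the gene of phosphatidylserine synthase 2, held a sense region in its first intron (chromosome 11, 452623 to 453248) with 38.9 and 68.3 FPKM. At any fragment length, the regions in LOC100130691 and PTDSS2 were present in 4 libraries and that in ANKH in 3, so none of these was limited to the K700E_induced libraries once shorter fragments were counted. All 14 had such a fragment in another library.

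In K700E_uninduced alone the leading regions were in RANBP10, in the overlapping zinc finger genes ZNF595 and ZNF718, and in NUP214, a nuclear pore gene. The RANBP10 region (chromosome 16, 67764936 to 67765301, sense, intron 7 of 13) had 118 and 116 FPKM, with no fragment of any length in the other 6 libraries. The region in ZNF595 and ZNF718 (chromosome 4, 66963 to 67370, sense) had 127 and 86.6 FPKM, and the one in intron 12 of 35 of NUP214 (chromosome 9, 134020526 to 134021048, sense) had 114 and 41.4 FPKM. Shorter fragments brought these to 5 and 3 libraries. Of the 16 regions with this pattern, 13 had a shorter fragment elsewhere.

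For WT_induced alone the leading regions lay in CD69, a gene of a leukocyte activation antigen (first intron, chromosome 12, 9910662 to 9911437, 56.0 and 185 FPKM), HEPH, which encodes the ferroxidase hephaestin (first intron, chromosome X, 65383315 to 65383952, 20.7 and 204 FPKM), and PRRC2B (intron 27 of 30, chromosome 9, 134364176 to 134364562, 87.0 and 65.7 FPKM). All 3 were sense. For WT_uninduced alone they lay in WIZ, a zinc finger gene (intron 3 of 7, chromosome 19, 15540396 to 15540881, 116 and 112 FPKM), VEGFA, the vascular growth factor gene (intron 3 of 7, chromosome 6, 43745457 to 43745805, 80.7 and 93.2 FPKM), and ARHGAP6 (intron 9 of 10, chromosome X, 11187009 to 11187446, 98.8 and 47.6 FPKM), again all sense. Counting fragments of any length, these 6 regions were present in 3 to 6 libraries.

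Among the 62 regions of exactly 4 libraries, 42 different sets of libraries occurred, and the commonest set had 6 regions. One region matched a whole line: in LSS, the gene of lanosterol synthase, a sense region of intron 17 of 22 (chromosome 21, 47620836 to 47621672) had 62.5 and 24.2 FPKM in K700E_induced and 27.9 and 15.0 in K700E_uninduced. It was absent from all 4 WT libraries, where no shorter fragment was listed either. The LSS gene overlapped between the lines, at 39.8 to 73.3 FPKM in the K700E libraries and 26.5 to 72.2 in the WT libraries. No region had the set of all 4 WT libraries or of all 4 doxycycline libraries, and 2 had the set of all 4 without doxycycline. One of them (chromosome 9, 114797808 to 114798531) had 26.4 and 56.8 FPKM in K700E_uninduced and 30.2 and 67.1 in WT_uninduced. Its limma adjusted p was 0.374 for K700E induction and 0.175 for WT induction. Fragments of any length were present there in 7 libraries, and in 5 at the other region, in MIR548D1. The counts of regions by set are out of the 62 regions. The share of all merged unspliced regions with each pattern is not given here, so the counts have no base rate beside them. The LSS region and the one on chromosome 9 were singled out after their values were seen. For LSS, limma's adjusted p for K700E_induced against WT_induced was 0.314.

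The 15 regions found in all 8 libraries lay in 14 host genes. They are given by the sum of FPKM over their fragments, which counts a region more than once where the assembler broke it into pieces; a level averaged over fragment length is added where the 2 differ. The coefficient of variation over the libraries ran from 31.5% to 111% (median 53.7%), and replicates of a group differed by a median of 1.60-fold and at most 26.1-fold. For 7 of the 15 (46.7%) an assembled spliced transcript on the same strand had an exon over the region, against 5.49% of all regions.

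The region with the highest mean, 332 FPKM, lay in intron 4 of 8 of GMPR, which encodes a guanosine monophosphate reductase of purine salvage (chromosome 6, 16264500 to 16267207, fragments on both strands). Its values were 386 and 402 in K700E_induced, 222 and 312 in K700E_uninduced, 504 and 332 in WT_induced, and 327 and 170 in WT_uninduced. The 4 libraries with doxycycline, at 332 or more, were above the 4 without, at 327 or less. Of the 15 regions this was the 1 whose summed FPKM did not overlap between doxycycline and none, against 2.98% of the 6772 features above 0 in all libraries. Averaged over fragment length the values overlapped, at 87.2 to 227 with doxycycline and 95.0 to 222 without. On that scale the region stood at 165 FPKM against 56.2 for the GMPR gene, and it lay above its host in 8 of 8 libraries.

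The longest region, 6483 nt, lay in intron 3 of 3 of HAPSTR1, a stress response gene (chromosome 16, 9198384 to 9204866, sense), and was built from 32 fragments. The summed FPKM was 588 and 204 in K700E_induced, 301 and 282 in K700E_uninduced, 62.5 and 232 in WT_induced, and 495 and 230 in WT_uninduced. With 2 to 7 fragments in a library, its average over length was lower, 74.4 FPKM, against 29.5 for the host. The other longest regions were one of 3371 nt in PROSER2-AS1, an antisense non-coding gene, and one of 3363 nt in DDX17 (below). The PROSER2-AS1 region (chromosome 10, 11925721 to 11929091) was found in 6 libraries, with no counted fragment in replicate 1 of either K700E group.

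PPP2R5C, which encodes a regulatory subunit of protein phosphatase 2A, held a sense region in intron 2 of 14 (chromosome 14, 102231386 to 102233251). It had 82.7 and 81.8 FPKM in K700E_induced, 29.0 and 572 in K700E_uninduced, 60.9 and 61.0 in WT_induced, and 144 and 300 in WT_uninduced. The K700E_uninduced replicates were its lowest and its highest library, also per length (29.0 and 171).

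AIG1, which encodes a lipid hydrolase, held a sense region in intron 3 of 5 (chromosome 6, 143508649 to 143510951). The nearest reference exon was 22328 nt away, but an assembled spliced transcript on the same strand had an exon over the region. Its summed FPKM was 18.2 and 26.3 in K700E_induced, 77.3 and 36.5 in K700E_uninduced, 82.5 and 173 in WT_induced, and 244 and 401 in WT_uninduced. All 4 K700E libraries were below all 4 WT libraries, on both lanes. It was the 1 region of the 15 whose lines did not overlap, against 3.81% of the 6772 features above 0 in all libraries. Averaged over fragment length the order held, from 18.2 to 36.9 in the K700E line and from 41.3 to 401 in the WT line. The host gene did not follow the same order: AIG1 was at 22.5, 67.6, 50.3 and 16.7 FPKM in the 4 K700E libraries and at 13.8, 7.17, 23.7 and 33.8 in the 4 WT libraries.

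H2AZ2, a gene of the histone variant H2A.Z, held a sense region (chromosome 7, 44871614 to 44873137, intron 4 of 4, 75 nt from an exon) with 119, 115, 29.7, 69.2, 42.9, 198, 98.7 and 111 FPKM in the order K700E_induced, K700E_uninduced, WT_induced and WT_uninduced. The K700E_induced pair was close together while WT_induced held both a low and the highest value. KAZN, which encodes a protein of cell junctions, held the only wholly antisense region of the 15 (chromosome 1, 15093974 to 15096767, first intron, 153857 nt from the nearest exon). An assembled spliced transcript on the same strand as the KAZN region had an exon over it. In the same order the region had 116, 4.46, 58.5, 71.8, 49.2, 50.2, 132 and 182 FPKM. The lowest library of all was 1 of K700E_induced, and the WT_uninduced pair was above every other library. The KAZN gene itself was between 1.17 and 10.4 FPKM. ANKRD11, a chromatin regulator gene, had 46.6, 57.7, 36.3, 114, 37.4, 81.4, 132 and 108 FPKM over a sense region in intron 5 of 9 (chromosome 16, 89365615 to 89366862), and the WT_uninduced pair was high but overlapped K700E_uninduced.

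CSNK2A2, the gene of a catalytic subunit of casein kinase 2, held 2 neighbouring regions of this kind in intron 11 of 11, followed by one of 6 libraries. The first (chromosome 16, 58193546 to 58195176, fragments on both strands) had 145 and 71.3 FPKM in K700E_induced, 41.4 and 29.1 in K700E_uninduced, 139 and 46.3 in WT_induced, and 85.2 and 53.8 in WT_uninduced. The second (58195242 to 58196460, sense) had 103, 32.6, 133, 67.9, 30.0, 21.0, 61.7 and 90.3 in the same order. The K700E_induced pair lay above the K700E_uninduced pair over the first region in summed FPKM but not per length (71.1 and 39.6 against 41.4 and 29.1), and overlapped it over the second. The region of 6 libraries (58196508 to 58197844, sense) had 0 and 23.2 FPKM in K700E_induced, 98.0 and 97.1 in K700E_uninduced, 0 and 46.3 in WT_induced, and 195 and 44.8 in WT_uninduced.

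SNRNP70 encodes the U1-70K protein of the spliceosome, and its sense region in intron 7 of 9 (chromosome 19, 49605888 to 49606869) had 54.4, 74.3, 36.5, 107, 32.8, 92.4, 66.4 and 122 FPKM. All 4 groups overlapped. Averaged over length it was at 65.6 FPKM, under the 86.6 of the gene. The remaining 5 were sense regions in SERINC3, a membrane protein gene (chromosome 20, 43126195 to 43127838, mean 67.1 FPKM), ATAD3B, of a mitochondrial ATPase (chromosome 1, 1413157 to 1413998, mean 61.8), the non-coding LINC02864 (chromosome 18, 70916263 to 70918047, mean 60.4), XKR3 (chromosome 22, 17286387 to 17287836, mean 54.3) and MICAL2, of an actin-oxidising enzyme (chromosome 11, 12281554 to 12283732, mean 32.9). Averaged over length, 11 of the 15 regions were above their host gene's mean, and those in GMPR, ATAD3B and XKR3 were above their host in all 8 libraries. As these levels cover only the assembled stretches, they do not show that intronic RNA exceeded the RNA of the whole host.

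**Figure D3:**
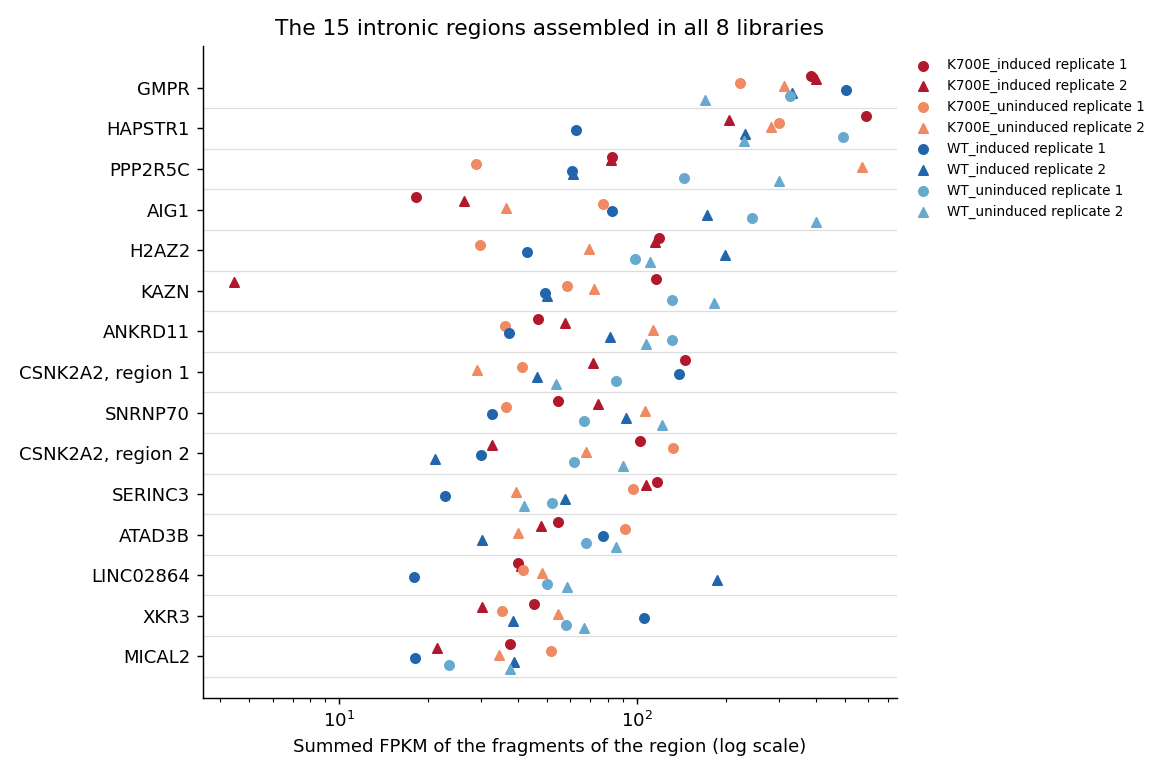
Each row is 1 of the 15 intronic regions assembled in all 8 libraries, and each point is its summed FPKM in 1 library (log axis), coloured by group with circles for replicate 1 and triangles for replicate 2. The AIG1 row alone separates the K700E libraries, at 77.3 or below, from the WT libraries, at 82.5 or above.

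The 5 comparisons of the design were fitted on one table of reference genes and all merged unspliced regions, as log2(scaled FPKM + 0.5) with limma over all 8 libraries. Of the 5211 intronic regions, 5134 had a mean scaled FPKM of 1 or more and entered among 20981 features. A region listed at 0 in a library entered as 0, so most of these rows rest on 1 library. No intronic region passed limma's adjusted p of 0.05 in any comparison. Over all features the calls were 0.00477% for K700E induction, 0.0381% for WT induction, 0.0191% for K700E_induced against WT_induced, 0.0286% for K700E_uninduced against WT_uninduced and 0.0286% for the interaction of line and induction. At an unadjusted p under 0.05 the intronic regions numbered 61 (1.19%, against 2.5% of all features), 75 (1.46%, against 2.7%), 70 (1.36%, against 2.85%), 56 (1.09%, against 2.79%) and 84 (1.64%, against 2.59%) in that order.

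Among the 15 regions of all 8 libraries, the smallest p belonged to AIG1 in 3 comparisons and came second in another. The change on K700E induction was -1.25 on the log2 scale (SE 0.53, adjusted p = 0.773 by limma) and on WT induction -1.35 (SE 0.53, adjusted p = 0.754). Against the WT line it was -2.45 (SE 0.53, limma adjusted p = 0.471) with doxycycline and -2.55 (SE 0.53, limma adjusted p = 0.481) without. These comparisons share libraries in pairs. With a minimum length of 500 nt, which leaves fewer fragments in the AIG1 region, all 4 values turned positive (1.84, 0.21, 1.75 and 0.13).

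On K700E induction the first CSNK2A2 region had a value of 1.55 on the log2 scale (SE 0.62, adjusted p = 0.773 by limma), and the second one of -1.52 (SE 0.61, limma adjusted p = 0.754) on WT induction. When regions up to 200 nt apart were joined, the pair merged with the CSNK2A2 region of 6 libraries, and the K700E value of all 3 together was -0.36. With a minimum length of 500 nt the WT value of the second region was 2.19. For SERINC3 the value for K700E_induced against WT_induced was 1.59 (SE 0.57, limma adjusted p = 0.745), with 117 and 108 FPKM against 22.8 and 57.7. For H2AZ2 the value for K700E_uninduced against WT_uninduced was -1.20 (SE 0.71, limma adjusted p = 0.772) and the interaction was 1.52 (SE 1.00, limma adjusted p = 0.665). The HAPSTR1 interaction was 1.71 (SE 1.01, limma adjusted p = 0.665). At 500 nt these 3 became 6.46, -5.87 and -4.14. Single libraries also moved these values: without WT_induced replicate 1 or 2, SERINC3 was at 0.94 or 2.24, the H2AZ2 interaction at 0.43 or 2.60 and the HAPSTR1 interaction at 0.78 or 2.64. Over the 15 regions the median log2 fold change was -0.23 on K700E induction and -0.62 on WT induction, with 9 and 11 of 15 below 0. It was 0.07 for K700E_induced against WT_induced (6 below 0), -0.51 for K700E_uninduced against WT_uninduced (11 below 0) and 0.71 for the interaction (4 below 0). The median of all features was 0 in the 4 pairwise comparisons and -0.25 in the interaction. Over all 5134 intronic regions tested, the median was likewise 0 in the 4 pairwise comparisons. In the interaction it was -2.57, with 2983 regions below 0 and 2151 above. Most of the 5134 rows rest on 1 library, and the sign of such a row is set by the group of that library. The -2.57 therefore reflects how many regions each library held alone, and the direction of the 15 regions cannot be set against it.

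The intronic region nearest to the threshold in any comparison, chosen after its values were seen, lay antisense to GLIPR1 (chromosome 12, 75889755 to 75891196). It had 31.1 and 106 FPKM in K700E_uninduced and 19.7 and 41.6 in WT_induced, and no counted fragment in the other 4 libraries. The interaction was -12.64 on the log2 scale (SE 1.44, limma adjusted p = 0.0621), a size set by the pseudocount. Fragments of any length were present there in 7 libraries, all but K700E_induced replicate 1. The GLIPR1 gene was listed at 0 in every library.

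A region singled out after its values were seen passed when regions up to 200 nt apart were also joined. It lay in an intron of DDX39B, which encodes an RNA helicase of splicing and mRNA export. There the region at 31500738 to 31502321 of chromosome 6 was joined with one at 31502491 to 31503109. They lay 49 and 34 nt from a reference exon, and an assembled spliced transcript on the same strand had an exon over each. Whether RNA at the 0 values below was assembled into spliced or exon-touching transcripts was not tested. The joined region had 197 and 109 FPKM in K700E_induced, 0 and 0 in K700E_uninduced, 87.5 and 44.4 in WT_induced, and 53.8 and 58.8 in WT_uninduced. The DDX39B gene was at 144 and 124 FPKM in K700E_induced and 117 and 62.1 in K700E_uninduced. In WT_induced the gene was at 0 and 75.8, and in WT_uninduced at 66.1 and 150. The log2 fold change on K700E induction, 8.14 (SE 0.56), depends on the pseudocount. limma's adjusted p was 0.00676 for K700E induction, 0.0137 for the uninduced lines and 0.0348 for the interaction. The share of all features called under this joining is not given here. A shorter fragment was present in K700E_uninduced replicate 1, and with overlap alone neither region passed. The intron is shared with the read-through transcript ATP6V1G2-DDX39B, so the host cannot be told apart.

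Intronic regions were spread over 2997 of the 20146 genes with an intron (14.9%). A single region was found in 1905 hosts, 2 to 4 in 927 and 5 or more in 165. Host genes were mostly well expressed: a region was present in 1.43% of genes listed at 0 in every library, 2.57% of those above 0 and up to 1 FPKM, 16.3% at 1 to 10, 34.7% at 10 to 100 and 23.1% above 100. Genes above 100 FPKM had shorter introns (median 7.52 kb in all against 22.7 kb at 10 to 100), and per Mb of intron sequence the density rose through all 5 classes, from 0.409 to 28.1 regions.

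The host with the most regions was ZNF385D, a zinc finger gene on chromosome 3 (21462490 to 21792816), with 24. By library it held 0 and 0 in K700E_induced, 5 and 3 in K700E_uninduced, 11 and 0 in WT_induced, and 13 and 0 in WT_uninduced. The gene itself was low and uneven, from 0 to 9.81 FPKM, with its highest values in WT_uninduced replicate 1 and K700E_uninduced replicate 1 (8.05). STXBP5, which encodes tomosyn, a syntaxin-binding protein, held 20 regions, none of them in more than 2 libraries. CPED1 held 17, among them 1 in 7 libraries (chromosome 7, 120690661 to 120691715). LINC00534, a non-coding gene, and NUP214 held 17 each, and CBFA2T3, a haematopoietic corepressor gene, held 16. LINC00534 held 7 in K700E_uninduced replicate 1 and 1 in replicate 2, and 7 and 0 in WT_induced.

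Density per Mb of intron sequence was 4.55 over the genome, lowest on chromosome 13 (1.60) and highest on chromosomes 19 (14.8) and 22 (14.0). On chromosome 22 the regions were concentrated on one side. From the start of the chromosome to the end of BCR there were 161 regions, 58.9 per Mb, and after BCR 76 regions, 5.35 per Mb. On chromosome 9 the stretch from ABL1 to NUP214 held 26 regions, 64.4 per Mb, against 3.42 before ABL1 and 13.9 after NUP214. K562 cells are known to carry amplified BCR-ABL1 and a fusion of NUP214 with XKR3, which also lies in the first of these stretches. The bounds were chosen after the values were seen, and DNA copy number was not measured here.

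On chromosome 22 up to BCR the density of the single libraries ran from 5.85 to 14.3 per Mb, and after BCR from 0.352 to 1.20, so the lowest library in the first stretch was above the highest in the second. From ABL1 to NUP214 the libraries ran from 2.48 to 14.9, above the 0.234 to 1.05 before ABL1 but overlapping the 1.07 to 3.75 after NUP214. Genes in both stretches were also more highly expressed, with a median of 51.9 FPKM among those at 1 FPKM or more against 11.8 elsewhere. Among genes at 10 to 100 FPKM, 26 of 35 in the stretches held a region (77.3 regions per Mb) against 1855 of 5393 elsewhere (14.2 per Mb), though within this class too the level was higher in the stretches, with a median of 42.2 FPKM against 22.2. Above 100 FPKM it was 14 of 22 genes (84.0 per Mb, median level 152 FPKM) against 127 of 588 (22.2 per Mb, median level 168). At 1 to 10 FPKM, 2 of 12 genes in the stretches (16.7%) held 3 regions (23.6 per Mb) against 798 of 4884 (16.3%) elsewhere (4.27 per Mb). BCR held 12 regions and ABL1 held 9, all but 1 of each in a single library. The BCR gene was between 38.4 and 109 FPKM, ABL1 between 93.0 and 120, and NUP214 between 142 and 175. Neighbours MED15 and PI4KA, a Mediator subunit and a lipid kinase gene, held 11 each, and DGCR8, a subunit of the microRNA processor, held 9, of which 2 were in 4 or more libraries.

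**Figure D4:**
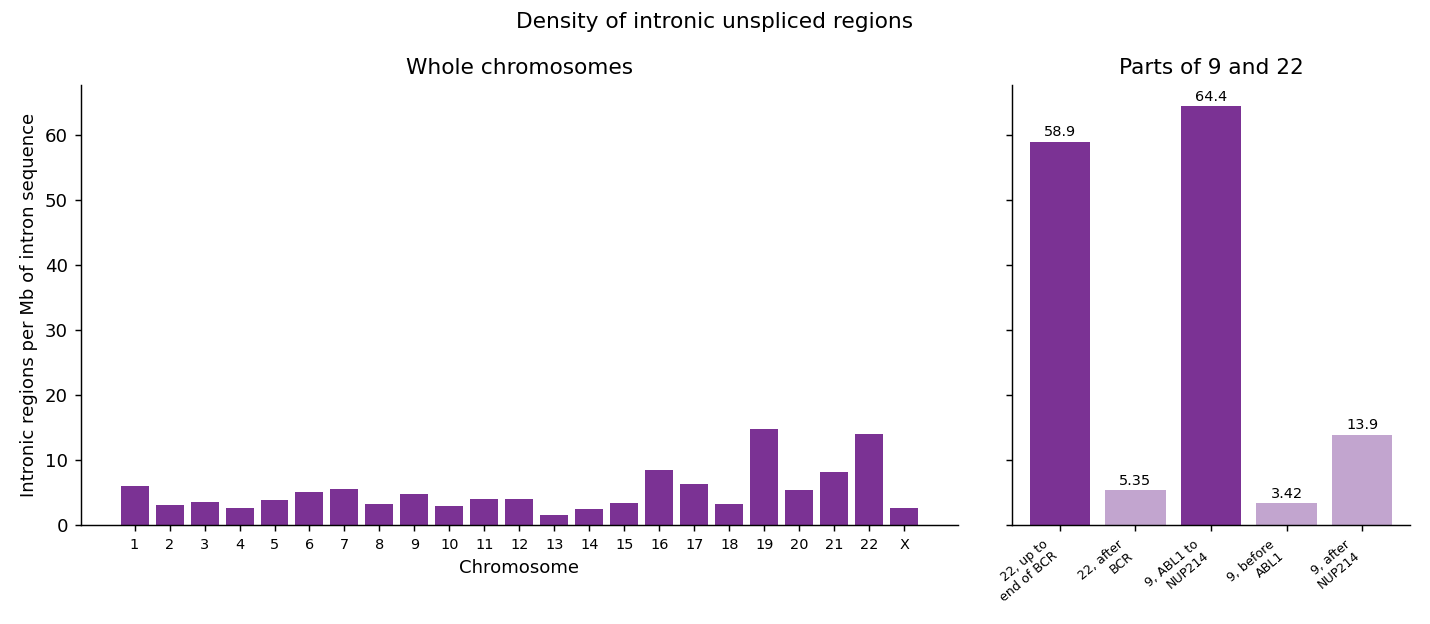
Bars give intronic regions per Mb of intron sequence, on the left for each chromosome and on the right for parts of chromosomes 22 and 9 around BCR, ABL1 and NUP214. Chromosome 22 up to BCR (58.9) and chromosome 9 from ABL1 to NUP214 (64.4) stand above every whole chromosome, of which chromosome 19 is the highest at 14.8.

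Gene lists were set beside the 25.8% of all 10933 genes at 1 FPKM or more that held a region (2823 genes, 9.43 regions per Mb of intron, median gene level 11.8 FPKM). Every list had a higher median level, from 18.3 FPKM for known targets of SF3B1 missplicing to 96.3 for hnRNP genes. Among all genes at 10 to 100 FPKM, 34.7% held a region. The shares of the lists were not adjusted for gene level. The list that stood highest was that of erythroid transcription factors, where 12 of 13 measured members held a region (92.3%, 39 regions, 71.9 per Mb, median level 79.0 FPKM). They were GATA1, GATA2, TAL1, LMO2, LDB1, NFE2, ZFPM1, MYB, RUNX1, GFI1B, STAT5A and STAT5B. STAT5A held 6 regions and GATA2, ZFPM1, MYB and RUNX1 held 5 each. None of the 39 was found in more than 2 libraries, and only 1 of the 5 in GATA2 was sense. GATA1 itself, the master erythroid factor, had 1 region, in K700E_induced replicate 2, at a gene level of 267 FPKM, while TAL1 had 2 at 33.5 FPKM.

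SR proteins, which bind exonic enhancers, and the CLK and SRPK kinases that phosphorylate them came next, with 14 of 21 holding a region (66.7%, 38 regions, 61.0 per Mb, median level 38.0 FPKM). SRSF11 held 6 regions, SRSF4 held 5, and SRSF10 and SON held 4 each. Regions in 4 or more libraries were found in SON, SRRM2 and SRSF5. In SON, a nuclear speckle protein gene, the region in intron 4 of 6 (chromosome 21, 34930605 to 34931361) was absent from K700E_induced replicate 1 and K700E_uninduced replicate 2 and was between 37.4 and 90.1 FPKM in the other 6. SRRM2, the other large speckle protein, had one that nearly filled intron 12 of 14 (chromosome 16, 2819292 to 2820323, 6 nt from an exon), with 74.8 and 60.2 FPKM in K700E_induced, 118 in WT_induced replicate 2, 107 in WT_uninduced replicate 1 and 0 in the rest. SRSF5 had one in intron 5 of 7 (chromosome 14, 70236159 to 70237011), with 25.1 FPKM in K700E_induced replicate 2, 114 and 73.0 in WT_induced, 99.2 in WT_uninduced replicate 2 and 0 in the rest. At any fragment length the SON region was present in 8 libraries. The SRSF5 region was then present in 6, with both of K700E_uninduced, and the SRRM2 region in 5, with neither of K700E_uninduced.

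Among RNA helicase and decay genes 10 of 20 held a region. DDX17, a DEAD-box helicase gene, had one in 7 libraries (chromosome 22, 38884566 to 38887928, intron 11 of 12), built from 20 fragments, with 108 and 151 FPKM in K700E_induced, 170 and 170 in K700E_uninduced, 51.0 and 413 in WT_induced, and 143 and 0 in WT_uninduced. Of the U2 and branch point factors, 8 of 19 held a region (42.1%). In SF3B1 there was 1, of 305 nt (chromosome 2, 198284844 to 198285148, sense, 3 nt from an exon), in WT_uninduced replicate 2 alone with 121 FPKM. DHX15, a helicase that takes spliceosomes apart, had a region in intron 10 of 13 (chromosome 4, 24538860 to 24539754) with 57.0 FPKM in K700E_induced replicate 1, 54.0 and 171 in WT_induced, 63.2 in WT_uninduced replicate 1 and 0 in the other 4. Neither K700E_uninduced library held a counted fragment, but fragments of any length were present there in 7 libraries, K700E_uninduced replicate 1 among them.

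Known targets of SF3B1 missplicing held a region in 11 of 27 (40.7%, 23 regions). BRD9, a chromatin remodeller subunit whose poison exon is a known target, and ENOSF1 held 5 each, and none of the 23 was found in 4 or more libraries. Heme and iron genes held a region in 7 of 22 (31.8%), with 8 in TFRC, the transferrin receptor gene, and a region in 5 libraries in SLC25A37, the gene of the mitochondrial iron importer mitoferrin (chromosome 8, 23424311 to 23425830), at 69.8 FPKM in K700E_induced replicate 1, 204 and 103 in K700E_uninduced, 75.3 in WT_induced replicate 2 and 42.5 in WT_uninduced replicate 2. The remaining lists were genes of BCR-ABL signalling with 6 of 16, hnRNP genes with 8 of 22, and recurrently mutated myelodysplasia genes and replication and cell cycle genes with 7 of 20 each.

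**Figure D5:**
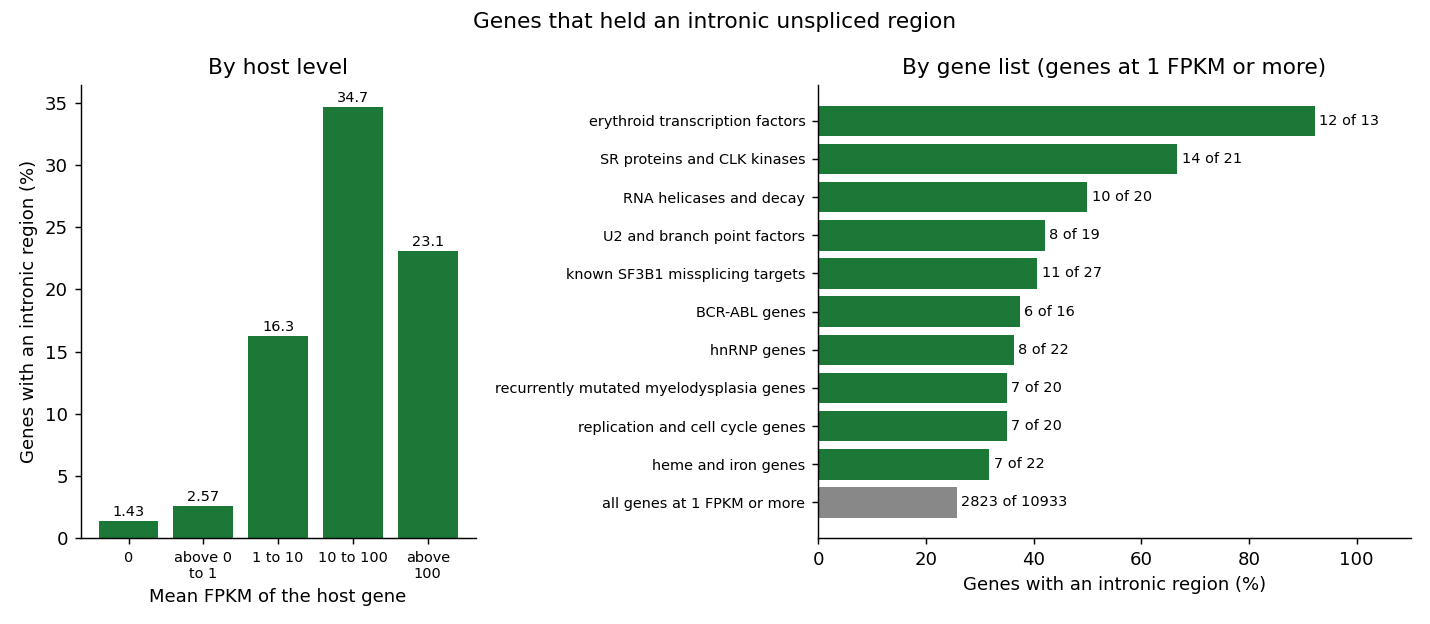
The left panel gives the percentage of genes that held an intronic region by the mean FPKM of the gene, and the right panel gives it for each gene list among genes at 1 FPKM or more, with the number of hosts beside the bar. Erythroid transcription factors (12 of 13) and SR proteins with their kinases (14 of 21) stand highest, against 2823 of 10933 genes in all (grey). The median gene level was higher in every list than over all genes.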

How the data were processed

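RNA from 8 libraries of K562 cells was analysed. The deposited lists give, per the file headers and attributes, FPKM and coverage for each transcript, which the authors estimated. The submitters' processing notes name CASAVA, TopHat, Cufflinks and the hg19 build, and no version was given for any of them. FPKM are estimates and read counts were not used, so no counting interval is given.

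Members and gene lists were chosen with earlier results of these data known. Fragments were merged where they overlapped by 1 base or more, ignoring strand. Reference transcripts were named by accession from a table of GRCh38 gene names (39467 of 40971), from the files (1089) or by shared introns (294); the rest kept their accession. Host levels are sums over reference transcripts and assembled spliced transcripts. Region FPKM were summed over fragments, scaled by median ratios over 5415 genes, and tested with limma 3.58.1 (trend, R 4.3.3) on log2(scaled FPKM + 0.5), which understates changes of low features, with Benjamini-Hochberg adjustment. Counts per library were compared by exact permutation. Replicate numbers coincide with sequencing lanes in the names of the lists. The deviations of same-numbered libraries were correlated between groups, with r from -0.01 to 0.03 over 20981 features. Many of these rows are 0 in most libraries, which draws r towards 0. Over the 15 regions in all 8 libraries r ran from 0.04 to 0.27, above 0 for every pair of groups. These values therefore cannot decide whether same-numbered libraries deviated together. The fit and the exact test were tested on simulated data.

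Regions were named by this rule: the 10 highest and others assembled in all 8 libraries, the 6 hosts with most regions, the 3 highest per group alone, the 2 smallest p per comparison among regions in all 8 libraries where no region passed, the 3 longest, list members in 4 or more libraries, SF3B1, and fragments nearest 300 nt. Sequences of the regions are not printed. Tables used Python 3.11.15, pandas 2.3.3, numpy 2.4.6 and scipy 1.17.1, and figures matplotlib 3.10.9.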

Additional observations from a re-analysis of the deposited data

How the results depend on the processing

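The 3 differences in intronic fragments per library passed no threshold under any alternative. The line difference was 0.750 with a minimum of 500 nt and 0.415 per 1000 assembled transcripts, and the difference of K700E_induced from the rest was 0.444 percentage points as a share of unspliced transcripts; both rates, and merging within a strand, were chosen after seeing the data. Leaving out 1 library moved the doxycycline difference between -53.4 and 186, the line difference between -160 and 94.4 and the K700E_induced difference between -356 and 64.2. With labels permuted within replicate number (a replicate block) the differences were the same, 67.8, -23.2 and -146, with adjusted exact p of 0.944 each.

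No intronic region was called under any change of pseudocount, low-value filter, scaling, trend, 500 nt minimum, replicate block, or a fit of only the groups compared (not possible for the interaction). Joining over 200 nt gave 1 call (DDX39B) in K700E induction, in the uninduced lines and in the interaction. With 1 library left out the calls ranged from 0 to 833 for K700E induction, 0 to 905 for WT induction, 0 to 908 for K700E_induced against WT_induced, 0 to 833 for the uninduced lines and 0 to 925 for the interaction. A group then has 1 library and no spread of its own, assumed to vary like the others. In the 22 fits with over 50 calls, 91.6% to 97.9% were regions found only in that lone library. WT_induced replicate 2 left out also gave calls in K700E induction and the uninduced lines, which do not use that group. The cause was not tested.

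Of single regions, CSNK2A2 on K700E induction turned to -0.36 when joined over 200 nt, which adds the neighbouring second region and a further one of 6 libraries. At 500 nt AIG1 turned to 1.84, 0.21, 1.75 and 0.13, CSNK2A2 on WT induction to 2.19, H2AZ2 to 6.46 and -5.87 and HAPSTR1 to -4.14, because fragments under 500 nt then enter as 0. Leaving out 1 library turned none of the 10 single-region values. On K700E induction CSNK2A2 ranged from 1.05 to 2.04 and AIG1 from -1.76 to -0.75. On WT induction CSNK2A2 ranged from -1.79 to -1.26 and AIG1 from -1.87 to -0.84. Between lines AIG1 ranged from -2.96 to -1.93 with doxycycline and -3.05 to -2.05 without, SERINC3 from 0.94 to 2.24 and H2AZ2 from -1.84 to -0.57. The interaction ranged from 0.78 to 2.64 for HAPSTR1 and 0.43 to 2.60 for H2AZ2. A minimum of 200 nt gave 82292 regions and 500 nt gave 634. Minimums of 1 FPKM and of full read support removed no fragment.

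Limits are few libraries, uneven assembly and unknown read counts.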
